A study of Homo sapiens with 2 samples.

Results

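The 10 long noncoding RNA genes described here, GAS5, SNHG1, SNHG8, SNHG12, SNHG15, ZFAS1, DANCR, EPB41L4A-AS1, MALAT1 and NEAT1, were chosen by name. They were found on the arrays as features that carry a RefSeq noncoding (NR_) transcript of one of these genes. All 10 genes were present, on 20 of the 50599 features that are not controls, and all were among the 23752 genes and transcripts above background on at least 1 array. The 8 snoRNA host genes had 1 feature each, MALAT1 had 8 and NEAT1 had 4. HepG2 cells, an established line from a human liver tumour, were treated for 24 h with hawk tea extract (HTE), a plant extract studied for its effect on cholesterol, or with its vehicle dimethyl sulfoxide (DMSO). The sample labels give a dose of 200 μg/mL HTE, whereas the name of the deposited HTE file carries 300. For this experiment the paper states the dose in the file name, not the one in the labels. It also reports that cell viability was slightly reduced at that dose. Why the labels differ is not known, and the part of reduced viability in the ratios was not tested. Each condition had 1 array, and the arrays shared a slide. No test between the conditions was therefore possible, no p value is given, and array and treatment cannot be told apart.

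The first 8 of these genes, GAS5 to EPB41L4A-AS1, are snoRNA hosts. Their introns carry small nucleolar RNAs (snoRNAs), which are released when the introns are removed and which guide chemical modification of ribosomal RNA. Box C/D snoRNAs (SNORD) guide ribose methylation and box H/ACA snoRNAs (SNORA) guide pseudouridylation. Many spliced host RNAs begin with a run of pyrimidines, the 5′ terminal oligopyrimidine (TOP) tract known from messenger RNAs of ribosomal proteins and elongation factors, and several are degraded by nonsense-mediated decay when they are translated. GAS5 takes its name from growth arrest, in which its spliced RNA accumulates. MALAT1 and NEAT1 are different. They stay in the nucleus, where MALAT1 lies in nuclear speckles that store splicing factors and NEAT1 holds together paraspeckles, and the 3′ end of the long form of each is cut by RNase P.

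The sequence around 1 RefSeq start of each host gene was searched for short pyrimidine motifs like those in the tract that gave the TOP class its name. RefSeq start sequences of the GRCh38.p14 build were found for 7 of the 8 hosts, with 1 start each, and for 2 starts of MALAT1. None was found for SNHG15 and NEAT1. RefSeq lists 50 transcripts for GAS5, 12 for SNHG1 and 8 for SNHG12. Other starts of a host were not examined, so a missing match holds for the start used alone. Pyrimidine motifs were searched on the transcribed strand, namely CTTTT, the variant CTTTC, the variant CCTTT, and the variant TCTTT, and these can overlap each other. Other runs of pyrimidines were not searched, so a start without a match can still hold such a run. At least 1 of them lay within 20 bases on either side of the start in SNHG12, SNHG8 and ZFAS1, compared with 13.1% of the 35116 start sequences in RefSeq. The stretches that follow run 5′ to 3′ on the transcribed strand from 30 bases before the start to 50 bases after it, and capitals mark every match. They are chr1:28581824-28581903 (minus strand), chr4:118278732-118278811 (plus strand) and chr20:49278612-49278691 (plus strand), with chr1:173868996-173869075 (minus strand) and chr11:62855836-62855915 (minus strand) as hosts in which the only matches lie farther in, and chr4:52712364-52712443 (plus strand) as a host with none.
SNHG12: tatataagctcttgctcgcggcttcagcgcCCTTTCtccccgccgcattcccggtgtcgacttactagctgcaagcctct
SNHG8: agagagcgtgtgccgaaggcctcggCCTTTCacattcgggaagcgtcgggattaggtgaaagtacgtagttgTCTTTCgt
ZFAS1: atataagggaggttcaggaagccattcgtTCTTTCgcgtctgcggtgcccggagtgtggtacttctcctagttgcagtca
GAS5: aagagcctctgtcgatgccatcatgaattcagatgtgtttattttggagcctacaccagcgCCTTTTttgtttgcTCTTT
SNHG1: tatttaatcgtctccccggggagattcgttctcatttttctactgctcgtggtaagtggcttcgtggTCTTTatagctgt
DANCR: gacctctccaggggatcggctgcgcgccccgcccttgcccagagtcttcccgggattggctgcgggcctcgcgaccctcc
In EPB41L4A-AS1 the only match began 31 bases after the start, and neither start of MALAT1 had a match. Over all RefSeq starts, 22.4% held a match in a stretch of this length. A match is a description of the letters and was not tied to a factor. Among other motifs searched on both strands of the whole 300-base stretch, CCAAT occurred 3 times in GAS5 and 5 times in DANCR (34.6% of all stretches hold it), TGACNNNGC occurred in the first MALAT1 start (13.3% of stretches), TNGCGTG occurred in the second MALAT1 start (5.51%), and CACGTG and TGATGNAA occurred in no member.

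The arrays were 1-colour Agilent arrays, and the value of each feature is the background-subtracted processed signal. Spots well above background made up 60.6% of those that are not controls with DMSO and 56.6% with HTE. Log2 signals were set relative to the 75th percentile of each array, a signal of 4020.0 on the DMSO array and 3570.3 on the HTE array, so a feature of equal signal on both has a log2 ratio of 0.17. All log2 ratios below are HTE over DMSO after this scaling and are relative to the bulk of the genes. Leaving the arrays unscaled shifted the all-gene median by -0.16, and scaling to the E1A spike-in RNA shifted it by -1.21, under which all 10 members were lower. All 7 hepatocyte markers examined, ALB, AFP, APOA1, TTR, FGB, SERPINA1 and HNF4A, were above background on both arrays. Their DMSO signals ran from 883 for HNF4A to 166234 for APOA1. Of the markers of other cells, PTPRC (leukocytes), PECAM1 (endothelium) and COL1A1 (mesenchyme) were also above background, with DMSO signals of 2351, 804 and 454, and COL1A2 was not. The part of other cells in the results was not tested. Replicate spots of a feature had a median SD of the log2 ratio of 0.05 (688 features), different features of the same gene had a median SD of 0.16 (3759 genes), and the error that the scanner software gives per spot came to between 0.20 and 0.25 for the log2 ratio of a member feature. None of these includes the variation between cultures.

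All 20 member features were well above background on both arrays and none was saturated. A gene with several features is represented by its brightest. By that measure 8 members were higher and 2, SNHG1 and SNHG12, were lower with HTE, and of the 8, SNHG8 and DANCR were near 0 and turned lower under scaling to the median or no scaling, DANCR also under normexp correction and quantile normalization. Of all genes tested 45.7% were higher, and of those with signals above the 75th percentile on both arrays 47.5% were. The median log2 ratio was 0.27 over the 10 members and 0 over all genes tested. No member was at least 2-fold higher, beside 5.25% of all genes and 5.74% of the 1567 genes named by an NR_ accession, and none was at least 2-fold lower, beside 3.03% and 3.64%. At a 1.5-fold cutoff 1 member, SNHG15, was higher and none was lower, whereas 12.4% of all genes were higher and 10.5% were lower. Among the 8694 genes with signals above the 75th percentile on both arrays, where all members lie by their brightest feature, 5.51% were at least 1.5-fold higher and 5.74% at least 1.5-fold lower. The ratio was larger than the software error of its spot in 8 of the 10 members and larger than 2 times that error in 5, SNHG12, SNHG15, EPB41L4A-AS1, MALAT1 and NEAT1.

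**Figure D1:**
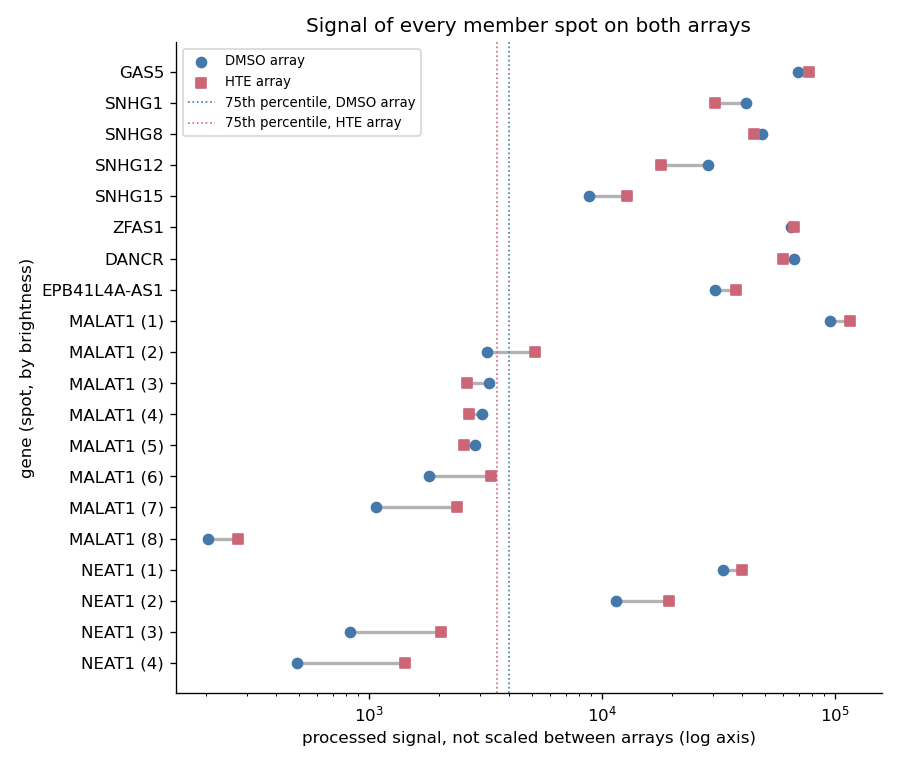
Processed signal (log axis, not scaled between arrays) of each of the 20 member features, with a circle for the DMSO array and a square for the HTE array. Features of MALAT1 and NEAT1 are numbered from the brightest, and dotted lines mark the 75th percentile of each array (4020.0 and 3570.3). The 8 hosts have 1 feature each, all to the right of both lines, whereas the DMSO signals of 7 of the 8 MALAT1 features lie to the left of the DMSO line.

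Among the hosts, SNHG15 showed the highest ratio. It is the host of SNORA9. Its signal was 8851 on the DMSO array and 12803 on the HTE array, a log2 ratio of 0.70 or 1.63-fold, and that ratio lay at the 90.3 percentile of all genes. SNHG15 stayed between 0.53 and 0.73 under every alternative other than the spike-in scaling. EPB41L4A-AS1, the host of SNORA13, had a signal of 30753 with DMSO and 37800 with HTE and a log2 ratio of 0.47. GAS5 went from 69777 to 77412, a log2 ratio of 0.32 or 1.25-fold. The local background around the GAS5 feature was marked by the software as an outlier on both arrays, at 58.5 and 62, which is small beside the signal. ZFAS1, the host of the SNORD12 family, had signals of 65041 and 66915 and a log2 ratio of 0.21, which is close to its software error of 0.20.

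The lowest ratio among the hosts was that of SNHG12. Its signal was 28688 with DMSO and 18036 with HTE, a log2 ratio of -0.50 or 1.41-fold lower, at the 13.5 percentile of all genes. SNHG1 went from 41593 to 30718, with a log2 ratio of -0.27. Both genes were lower under all alternatives run, between -0.67 and -0.46 for SNHG12 and between -0.44 and -0.24 for SNHG1 when the spike-in scaling is left aside. SNHG8, the host of SNORA24, had signals of 48801 and 44891 and a log2 ratio of 0.05, and DANCR, which hosts SNORA26 and is named for keeping progenitor cells from differentiating, had signals of 66932 and 60126 and a log2 ratio of 0.02. Neither ratio exceeded the software error. Of the 3 hosts with a pyrimidine motif within 20 bases of the start, SNHG12 was lower, ZFAS1 higher and SNHG8 near 0. The matches began 1 and 2 bases after the start in SNHG12, and 1 base before and after it in ZFAS1. In SNHG8 those near the start began 5 and 4 bases before it, mostly outside the transcribed part. SNHG12 and ZFAS1 thus did not share a direction.

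**Figure D2:**
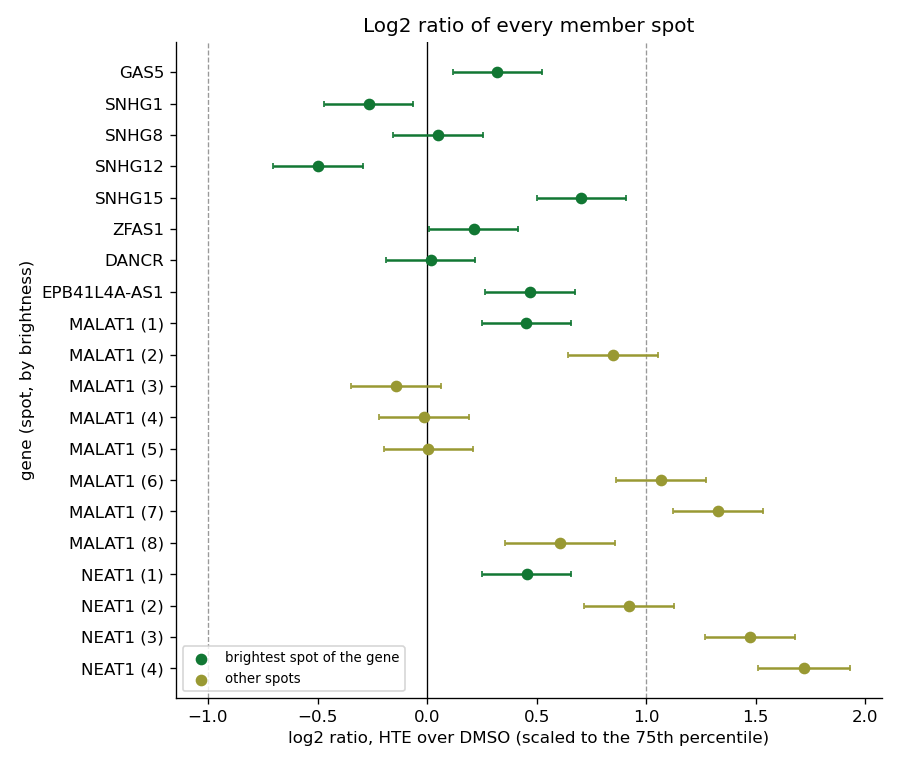
Log2 ratio of HTE over DMSO for each of the 20 member features after scaling to the 75th percentile. Bars show the error the scanner software gives for the ratio and do not include the variation between cultures, dark green marks the brightest feature of a gene, and dashed lines mark 2-fold. The 10 brightest features lie between -0.50 and 0.70, and the 4 features beyond 2-fold are dimmer features of MALAT1 and NEAT1.

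NEAT1 was higher at all 4 of its features. The brightest went from 32998 to 40148, a log2 ratio of 0.45 or 1.37-fold. The next went from 11534 to 19392, a log2 ratio of 0.92. The dimmest pair of features went from 831 to 2049 and from 492 to 1438, log2 ratios of 1.47 and 1.72 or 2.78-fold and 3.29-fold. The NEAT1 ratios were thus larger the dimmer the feature, with a mean of 1.14 and an SD of 0.57 over the 4 features. The mean over features would place NEAT1 past 2-fold, and its brightest feature would not. The ratio of the dimmest feature exceeded that of the brightest by 1.27, at the 98.5 percentile among the 194 genes with at least 4 features above background on both arrays, whose median for the same difference was 0.07. Where each feature lies along NEAT1, and which of its forms it reads, is not given in the sources used here.

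The 8 features of MALAT1 did not share a direction. Its brightest feature went from 95596 to 116210, a log2 ratio of 0.45, but the spots around it on the slide also had a median of 0.29, and 0.16 remained when that was subtracted. Under normexp correction the same feature had 0.71, past 1.5-fold, and under quantile normalization 0.32. Features 3 to 5 by brightness were near 0 or below. They went from 3272 to 2635, from 3050 to 2683 and from 2869 to 2558, log2 ratios of -0.14, -0.01 and 0.01, all within the software error of 0.20. The other features were higher. A feature with signals of 3224 and 5160 had a log2 ratio of 0.85, one of 1806 and 3364 had 1.07, one of 1080 and 2403 had 1.33, and the dimmest, of 204 and 276, had 0.61. The mean over the 8 features was 0.52 with an SD of 0.54, at the 94.3 percentile of the SDs among genes with at least 4 features, whose median SD was 0.21. For NEAT1 the SD lay at the 94.8 percentile. MALAT1 and NEAT1 lie 52.2 kb apart on chromosome 11, and FRMD8, a protein-coding gene beside the pair, had a log2 ratio of 0.07.

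The snoRNAs encoded inside the hosts were lower with HTE, whichever way the host went. RefSeq places 31 snoRNA genes within the spans of the 8 hosts, and 27 of them had a feature, 20 of box C/D and 7 of box H/ACA, all above background on at least 1 array. Of these 27, 26 were lower with HTE and none was higher, with a median log2 ratio of -0.76. However, 4 of the 27, SNORD77, SNORD75, SNORD12B and SNORA44, passed background with DMSO alone. Their values are bounds that could not lie above 0. The 23 above background on both arrays were all lower, with a median of -0.81. The bounds of SNORD77 and SNORD75, -0.31 and -0.24, lay within their software errors of 0.48 and 0.61. For SNORA44 the bound was under 1-fold, so no change is given for it. SNORD12C, SNORD12B and SNORD12, all inside ZFAS1, were all lower. SNORD12C had a log2 ratio of -0.81 and SNORD12 of -1.77, SNORD12B was at least 2-fold lower as a bound, and the signal of SNORD12 was 2372 with DMSO and 616 with HTE. Inside SNHG1, SNORD30 went from 485 to 167 (-1.37), SNORD27 from 287 to 111 (-1.19) and SNORD25 from 2029 to 1402 (-0.36). Inside SNHG12, SNORA61 went from 10499 to 4587 (-1.02). SNORA26 inside DANCR went from 9994 to 4243 (-1.06) and SNORA24 inside SNHG8 from 3473 to 1764 (-0.81). The 8 snoRNAs measured inside GAS5 ranged from -0.92 for SNORD44 to -0.24 for SNORD75, the latter a bound, and SNORD47, the brightest of them, went from 21322 to 12065 (-0.65). The log2 ratios of SNORA13 inside EPB41L4A-AS1 and SNORA9 inside SNHG15 were -0.64 and -0.27.

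Of the 27 snoRNAs, 26 lay below the ratio of their own host gene, as did all 23 of those above background on both arrays. A bound, which could not exceed 0, was fixed to lie below any host with a positive ratio. The median of the snoRNAs lay below the host in all 8 hosts. The difference between that median and the host ranged from -0.32 in SNHG12 to -1.22 in ZFAS1. It does not depend on how the arrays are scaled to each other, since a scaling factor moves host and snoRNA alike, and 26 of 27 were below the host under each of the scalings by a factor. Other processing steps did move the difference. Over the 27 snoRNAs its median was -0.86, beside -0.64 under normexp correction and -0.97 with no filter on dim features. The comparison with other snoRNAs was chosen after these values had been seen. The other 192 snoRNAs measured had a median log2 ratio of -0.26, with 132 lower and 49 higher, so a lower ratio was frequent among snoRNAs outside these hosts too. Among those 192, 5.21% were at least 2-fold lower and 29.2% at least 1.5-fold lower, beside 6 and 21 of the 27 inside the hosts. With bounds left out, 5 and 20 of 23 inside the hosts passed these cutoffs, beside 10 and 51 of 170 others. The 2-fold counts moved with the processing: they were 2 of 27 and 4 of 192 under normexp correction, 11 and 26 with no scaling, and 27 and 162 with the spike-in scaling. The 1.5-fold counts under normexp correction were 18 of 27 and 37 of 192. The 18310 other genes within the DMSO signal range of the 27 snoRNAs had a median of -0.03. snoRNAs of the same host share its transcription and are not independent, and the sequence of each feature is not given in the files. The labelling kit starts from poly(A) tails, which mature snoRNAs do not carry as a rule, so whether a feature reads the mature snoRNA or unspliced and degraded host RNA cannot be told from these arrays.

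**Figure D3:**
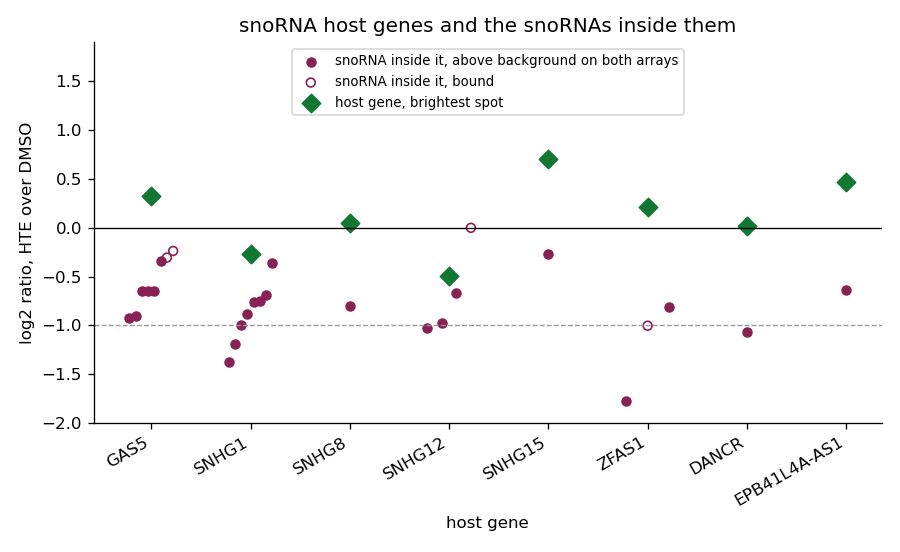
Log2 ratio of HTE over DMSO of the 8 snoRNA host genes (green diamonds) and of the 27 snoRNAs inside them (purple circles, open where the snoRNA was above background on 1 array and the value is a bound). No error bars are drawn, and the dashed line marks 2-fold lower. Host ratios lie between -0.50 and 0.70, and 26 of the 27 circles lie below 0 and below the diamond of their host.

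Other genes known as snoRNA hosts had medians below 0. Of the 15 other noncoding hosts listed, 11 were measured, 9 of them lower, with a median of -0.11. SNHG10 and SNHG4 were the lowest at -0.92 and -0.85, and the second feature of SNHG4 had -1.45. SNHG5 was the highest at 0.30, the top of its 18 features, which ranged down to -0.09. SNHG7 followed at 0.10, and its second feature had -1.30. The 19 protein-coding hosts, which carry snoRNAs in their introns as well, had a median of -0.25 with 13 lower and 6 higher. The chaperonin subunit TCP1 had -0.47 and CWF19L1 had -0.57, whereas the translation elongation factor EEF2 had 0.44 and the ribosome-bound scaffold RACK1 had 0.40. No gene of either list was past 2-fold by its brightest feature. Over all genes tested 45.7% were higher.

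TOP messenger RNAs outside the ribosomal proteins, which share the pyrimidine start with part of the hosts, had a small positive median. Of 17 genes, 14 were higher and 3 lower, with a median of 0.09, which became -0.08 with no scaling. EEF2 and the initiation factor subunit EIF3F were the highest at 0.44 and 0.41, and the nucleolar protein NPM1 and EEF1B2 the lowest at -0.27 and -0.09. The nonsense-mediated decay factors had a median of -0.15, with 12 of 14 lower, beside 11631 of all 23752 genes tested. UPF1, the helicase of the pathway, had -0.37 and UPF3A -0.49, and the kinase SMG1 and SMG9 had 0.09 each. For NPM1, UPF3A and SMG1, other features of the same gene had the opposite sign, up to 0.15, up to 0.09 and down to -0.57.

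Messenger RNAs of proteins that bind snoRNAs were mostly lower. Of the 14 box C/D and H/ACA proteins and assembly factors, 12 were lower with a median of -0.18, beside 11631 lower of all 23752 genes tested. The assembly factor SHQ1 had -0.57 and the box C/D core protein NOP56, itself a snoRNA host, had -0.46. The H/ACA core protein NOP10 had 0.17 and the box C/D core protein SNU13 had 0.03.

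Messenger RNAs of the protein partners of MALAT1 and NEAT1 were also mostly lower. Among all genes with signals above the 75th percentile on both arrays, 4562 of 8694 were lower. The 25th percentile of their ratios was -0.22, so the medians of the lists that follow lie near it. Of 13 paraspeckle proteins 12 were lower, with a median of -0.23. RBM14 went from 41146 to 20482 (-0.84) and PSPC1 had -0.44, whereas NONO, a core protein that binds NEAT1, had -0.03. EWSR1 was the exception at 0.52, and its 3 features ranged from -0.20 to 0.65. Of 19 nuclear speckle and SR proteins 15 were lower, with a median of -0.18. The speckle and junction protein PNN was the only one past 2-fold by its brightest feature at -1.27, from 2561 to 942, followed by the splicing factor SRSF1 at -0.96. The 3 features of SON ranged from -1.02 to -0.66. The kinases CLK4 and CLK1, which phosphorylate SR proteins, had 0.48 and 0.33. Of 15 factors listed for the processing and decay of MALAT1 and NEAT1, 12 were lower, with a median of -0.25. The RNase P subunit POP1 had -0.78 and RPP14 had -0.34. RPP25, another RNase P subunit, was past 2-fold at 1.11, with low signals of 179 and 343, and RBM7, part of a complex that brings nuclear RNA to the exosome, had 0.58.

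Genes beside the hosts had ratios in either direction. SLC3A2, the heavy chain of amino acid transporters, lies 224 bases from SNHG1 in RefSeq and went from 9839 to 18897, a log2 ratio of 1.11 beside -0.27 for SNHG1. ZNFX1, a helicase gene 121 bases from ZFAS1, had -0.58 beside 0.21 for ZFAS1. PRSS12, 215 bases from SNHG8, passed background with DMSO alone. TRNAU1AP overlaps SNHG12 and had 0.31 beside -0.50, with low signals of 578 and 634. EPB41L4A overlaps EPB41L4A-AS1 and had 0.32 beside 0.47, also with low signals of 197 and 219. Near GAS5, the antithrombin gene SERPINC1 had 0.72 and GAS5-AS1 had 0.16. Each of these values is from 1 spot other than that of ZNFX1, which had 3 features, and EPB41L4A, which had 2.

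**Figure D4:**
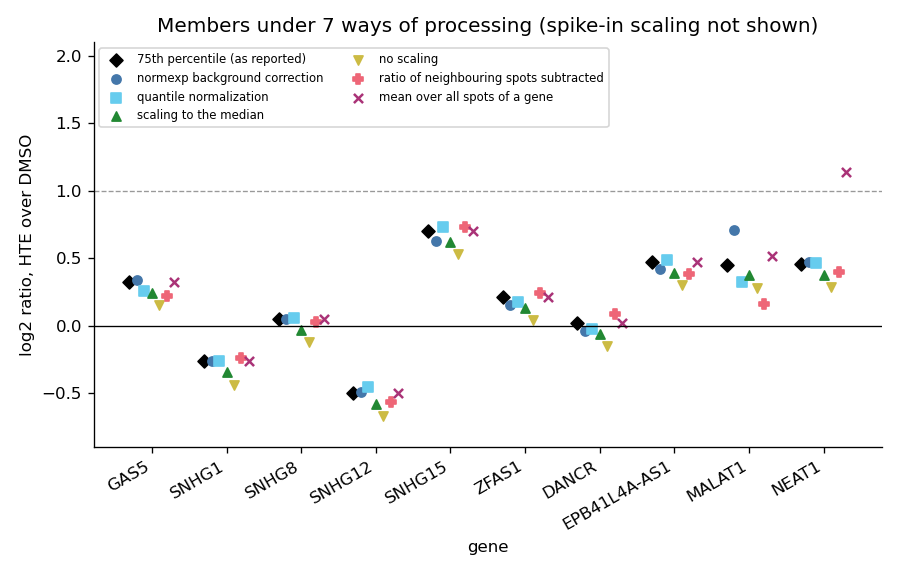
Log2 ratio of HTE over DMSO of the 10 members, each by its brightest feature or by the mean over its features, under 7 ways of processing the arrays. Scaling to the spike-in RNA, which moved the all-gene median by -1.21, is not drawn, and the dashed line marks 2-fold. SNHG1 and SNHG12 lie below 0 under all 7, and NEAT1 passes 2-fold by the mean over its features alone.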

How the data were processed

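Total RNA of DMSO-treated and HTE-treated HepG2 cells was profiled on 1 array each. The authors labelled it with Cy3 from poly(A) tails (Agilent Low Input Quick Amp kit) and deposited the Agilent Feature Extraction output, whose values are intensity values, the background-subtracted processed signal of each spot, not scaled between arrays. The file header names software version 11.5.1.1 and the submitters' processing notes name 10.7. The deposited background and outlier flags were also used.

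Control spots and outlier spots (440 with DMSO, 459 with HTE) were left out. Log2 values were computed from the authors' signals and the 75th percentile of each array was subtracted. Replicate spots of a feature, where present, were averaged. A feature well above background on 1 array alone entered as a bound against the lowest signal above background on the other, where bounds under 1-fold were set to 0. Features were named through their RefSeq accession, without version, and the GRCh38.p14 gene table, where 28174 of 50599 features and 3621 of 3962 with an NR_ accession were found. The files were made on another build, so no coordinates of the files are given. snoRNAs and neighbours were placed by the gene spans of that table, without strand. A gene is its brightest feature, and 2-fold, the cutoff of the study, was used to count.

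The members and the gene lists were chosen with earlier results of these data known. Of each list the 2 highest and 2 lowest genes above background on both arrays, and any past 2-fold, are named, as are all members and neighbours of the members, of which some are not reported here. Alternatives were normexp correction (offset 50), quantile, median, spike-in and no scaling, outliers kept, the mean over features, other filters on dim features, a 1.5-fold cutoff, and subtraction of the median ratio of the spots around each feature, a setting chosen after seeing the data. The number of arrays limits the precision. In simulated data, the DMSO array against a shifted copy of itself, all 200 shifted genes of 23309 were called and no other. Because the copy came from the same array, this checked the calculation and not the error between arrays or cultures. Python 3.11.15 (numpy 2.4.6, pandas 2.3.3, matplotlib 3.10.9) and R 4.3.3 (limma 3.58.1) were used.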

Additional observations from a re-analysis of the deposited data

How the results depend on the processing

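Without the spike-in scaling, SNHG1 and SNHG12 were lower and GAS5, SNHG15, ZFAS1, EPB41L4A-AS1, MALAT1 and NEAT1 higher under every alternative run. DANCR turned lower under normexp and quantile normalization, and DANCR and SNHG8 under scaling to the median and no scaling, so 4 members were lower under each of the last pair. Scaling to the E1A spike-in moved all values: 10 members were lower and 0 higher, 5 were at least 2-fold changed, 0 at least 1.5-fold higher and 9 at least 1.5-fold lower, with medians of -0.95 for the members, -1.09 for the hosts and -1.98 for the snoRNAs inside them, and the MALAT1 feature at 1.07 became -0.15. The median of the members was 0.19 with scaling to the median, 0.10 with no scaling and 0.19 with the ratio of neighbouring spots subtracted, and between 0.21 and 0.32 when each member was left out in turn. The median of the hosts was 0.051 with scaling to the median and -0.040 with no scaling. At least 1.5-fold higher were 2 members under normexp (SNHG15 and MALAT1, the latter at 0.71), 2 by the mean over features and 0 with no scaling, under which 1 was at least 1.5-fold lower. By the mean over features 1 member, NEAT1, was at least 2-fold changed. The median of the snoRNAs inside the hosts was -0.64 under normexp, -0.83 under quantile normalization, -0.84 with scaling to the median, -0.93 with no scaling, and -0.81 both with no filter on dim features and with their own values in place of bounds. The medians of the lists kept their sign under 10 of 10 alternatives other than the spike-in scaling, except that those of the TOP messenger RNAs and the other long noncoding RNAs fell below 0 with no scaling.

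No paired analysis was possible because each condition has a single array. Naming features by a gene name column could not be run, since the files have none, and normexp used the median signal of each spot because they hold no mean signal. The promoter stretch cut to 100 bases before the start changed the share of stretches with CCAAT from 34.6% to 21.3%. Dim features have the largest software error, up to 0.81 among the snoRNAs.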

Other observations

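Among 26 other named long noncoding RNAs, 23 were measured, of which 16 were higher and 7 lower, beside 45.7% higher over all genes tested. Their median log2 ratio was 0.15. LINC-PINT, a transcript known as a p53 target, was the only one past 2-fold by its brightest feature. It went from 1555 to 4460, a log2 ratio of 1.69, and its 10 features ranged from 0.66 to 2.48, all higher. RN7SK, the small nuclear RNA that holds the elongation factor P-TEFb inactive, went from 7261 to 12337 (0.94). H19, an imprinted fetal transcript, went from 873 to 392 (-0.98), with -1.88 at its second feature, and OIP5-AS1 went from 16147 to 8127 (-0.82). LINC-PINT and NEAT1 thus both had several features of which all were higher, by different amounts at each. This was not particular to them. The 4 features of CRNDE ranged from 0.52 to 0.70 and the 10 of PVT1 from 0.03 to 0.23.

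The 151 snoRNAs inside protein-coding genes had a median log2 ratio of -0.30, with 114 lower and 31 higher. The 36 inside noncoding genes other than the 8 hosts had a median of 0, with 15 lower and 17 higher. Both medians lie above the -0.76 of the snoRNAs inside the 8 hosts. Among the snoRNAs above background on both arrays alone, 23 of 23 inside the hosts were lower, with a median of -0.81, and 121 of 170 others were lower, with a median of -0.30.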
